A study of Mus musculus with 12 samples.

Results

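Splicing removes introns from pre-mRNA, and many of the 78 genes described here encode proteins that do this work or steer it. Some act elsewhere, such as Lsm10, Lsm11 and Lsm14a described below. All 78 are called splicing genes here for short. They were taken from the 23235 genes of the expression table by their symbols: 8 Sf3a and Sf3b genes, 12 Snrp genes, 12 Lsm genes, 18 Hnrnp genes, 11 Srsf genes, 1 Sfrs gene, 13 Prpf genes and 3 U2af genes. Sfrs18 is an older symbol that RefSeq lists for Pnisr. RNA was measured in mouse spermatocytes of the C57BL/6 background, sorted by flow cytometry at leptotene/zygotene (LZ), when recombination starts and homologs find each other, or at pachytene, when the homologs are synapsed. Each of the 4 groups had 3 libraries: pachytene cells labelled as Rnaseh1 knock-out, wild-type (WT) pachytene cells, LZ cells labelled as Rnaseh1 knock-out and WT LZ cells. Rnaseh1 encodes RNase H1, an enzyme that cuts RNA paired with DNA. The labels give neither the knock-out allele nor any Cre driver, age or count of animals, and do not say whether replicates came from separate animals, so p-values measure the spread between these libraries, which may be technical.

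The spliceosome is built from small nuclear ribonucleoproteins (snRNPs), each an snRNA with its proteins. U1 snRNP marks the 5' splice site, U2AF and U2 snRNP mark the 3' splice site and the branch point, and the tri-snRNP of U4, U5 and U6 brings in the catalytic core. SR proteins mostly bind exons and favour their inclusion, while hnRNP proteins coat the transcript and often act against it. The testis is known for a large amount of alternative splicing, and several splicing regulators are needed for male meiosis in the mouse.

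Levels are FPKM (fragments per kilobase of transcript, normalised to the mapped fragments of the library) that the authors scaled between libraries by added ERCC spike-in RNA, so a library with more mRNA relative to the spike-ins has a higher total. Totals ran from 4811570 to 6702160 FPKM in KO-labelled pachytene libraries, 3319970 to 4183730 in WT pachytene libraries, 430372 to 512468 in KO-labelled LZ libraries and 609831 to 885259 in WT LZ libraries. The number of reads per library is unknown. The level of Rnaseh1 did not pass the test between genotypes at either stage. It averaged 80.2 ± 13.0 FPKM in KO-labelled and 53.7 ± 2.74 FPKM in WT pachytene libraries (limma adjusted p = 0.0638), and 14.7 ± 3.62 FPKM in KO-labelled and 17.8 ± 2.39 FPKM in WT LZ libraries (adjusted p = 0.407; SD, n = 3 each). The deleted stretch is not given in the sources used here, so these levels do not check the labels, and the genotype is called KO-labelled throughout (KO in the plots). The 8 pachytene markers, such as Ldhc and Piwil1, summed to 1.04 to 1.17% of the total in KO-labelled and 0.745 to 0.877% in WT pachytene libraries, against 0.270 to 0.367% in KO-labelled and 0.332 to 0.422% in WT LZ libraries. The 7 measured LZ markers, such as Dmc1 and Sycp3, summed to 0.160 to 0.228% in KO-labelled and 0.235 to 0.251% in WT pachytene libraries, against 0.399 to 0.559% in KO-labelled and 0.336 to 0.481% in WT LZ libraries. Ldhc and Sycp3 made up most of these sums, and single markers did not all follow them. The LZ marker Spo11 had 645 to 971 FPKM in WT pachytene and 61.8 to 96.2 FPKM in WT LZ libraries. Its share of the total was higher at pachytene in both genotypes. Shares of the pachytene markers Ccna1 and Pgk2 overlapped between the stages in WT. Markers of other cells moved with the groups. All 8 round spermatid markers, such as the protamines, were measured, and their summed level was 1784 to 9511 FPKM in KO-labelled against 37221 to 45232 FPKM in WT pachytene libraries, and 788 to 5489 FPKM in KO-labelled against 14668 to 31758 FPKM in WT LZ libraries. The 6 Leydig cell markers, led by Insl3, summed to 1358 to 5493 FPKM in KO-labelled and 2339 to 8734 FPKM in WT pachytene libraries, but to 3.38 to 88.9 FPKM in KO-labelled and 3.74 to 17.1 FPKM in WT LZ libraries. The 4 peritubular markers summed to 154 to 198 FPKM in KO-labelled and 504 to 675 FPKM in WT pachytene libraries, and to at most 18.4 FPKM in KO-labelled and 28.3 FPKM in WT LZ libraries. The 6 measured Sertoli cell markers, led by Clu, summed to 471 to 535 FPKM in KO-labelled and 723 to 1023 FPKM in WT pachytene libraries, and to 270 to 666 FPKM in KO-labelled and 223 to 536 FPKM in WT LZ libraries, with Amh alone at most 0.41 FPKM in every library. The 6 macrophage and blood markers summed to 295 to 442 FPKM in KO-labelled and 95.7 to 581 FPKM in WT pachytene libraries, and to at most 2.09 FPKM in KO-labelled and 19.0 FPKM in WT LZ libraries. The 6 spermatogonia markers summed to 38.0 to 94.8 FPKM in KO-labelled and 342 to 432 FPKM in WT pachytene libraries, and to 165 to 204 FPKM in KO-labelled and 246 to 534 FPKM in WT LZ libraries. As a share of the total, some of these lists were higher at LZ. Round spermatid markers made up 2.09 to 3.59% in WT LZ and 0.890 to 1.33% in WT pachytene libraries. In KO-labelled cells this was 0.165 to 1.28% at LZ and 0.0309 to 0.198% at pachytene. Sertoli and spermatogonia shares were also higher at LZ, in both genotypes. Leydig, macrophage and blood shares were higher at pachytene, as were peritubular ones in WT, while peritubular shares overlapped in KO-labelled cells. In bulk libraries such as these, fewer cells of a type and less RNA per cell cannot be told apart, and the part of other cells in the results below was not tested.

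All 78 splicing genes passed the filter on low values (at least 1 FPKM in at least 3 of the 12 libraries), along with 15322 other genes, and 74 of them had a mean of at least 10 FPKM. On the length-corrected FPKM scale, the most abundant were the small ring proteins. Sm proteins form a ring around the snRNAs of U1, U2, U4 and U5, and their LSm relatives form one on U6 snRNA. Snrpe, an Sm ring subunit with the highest mean level of the Snrp genes, had 4995, 4741 and 5353 FPKM in KO-labelled and 3350, 5313 and 4028 FPKM in WT pachytene libraries, against 590, 1005 and 901 FPKM in KO-labelled and 1472, 1302 and 995 FPKM in WT LZ libraries. Every pachytene library was above every LZ library, and the genotypes overlapped at both stages. Lsm7, a subunit of the LSm rings, led its family with 3697 ± 317 FPKM in KO-labelled and 3704 ± 574 FPKM in WT pachytene libraries, and 565 ± 165 FPKM in KO-labelled and 812 ± 139 FPKM in WT LZ libraries. At the other end were 4 genes with means under 10 FPKM over the 12 libraries: Lsm11, Prpf19, Srsf12 and Snrpn. Prpf19, a ubiquitin ligase of the activated spliceosome, had only 6.14 ± 1.12 FPKM in KO-labelled and 3.90 ± 0.0935 FPKM in WT pachytene libraries. Snrpn, the imprinted relative of Snrpb that is best known from neurons, had 2.99 ± 1.21 FPKM in KO-labelled pachytene libraries, where Snrpb had 1460 ± 70.1 FPKM.

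**Figure D1:**
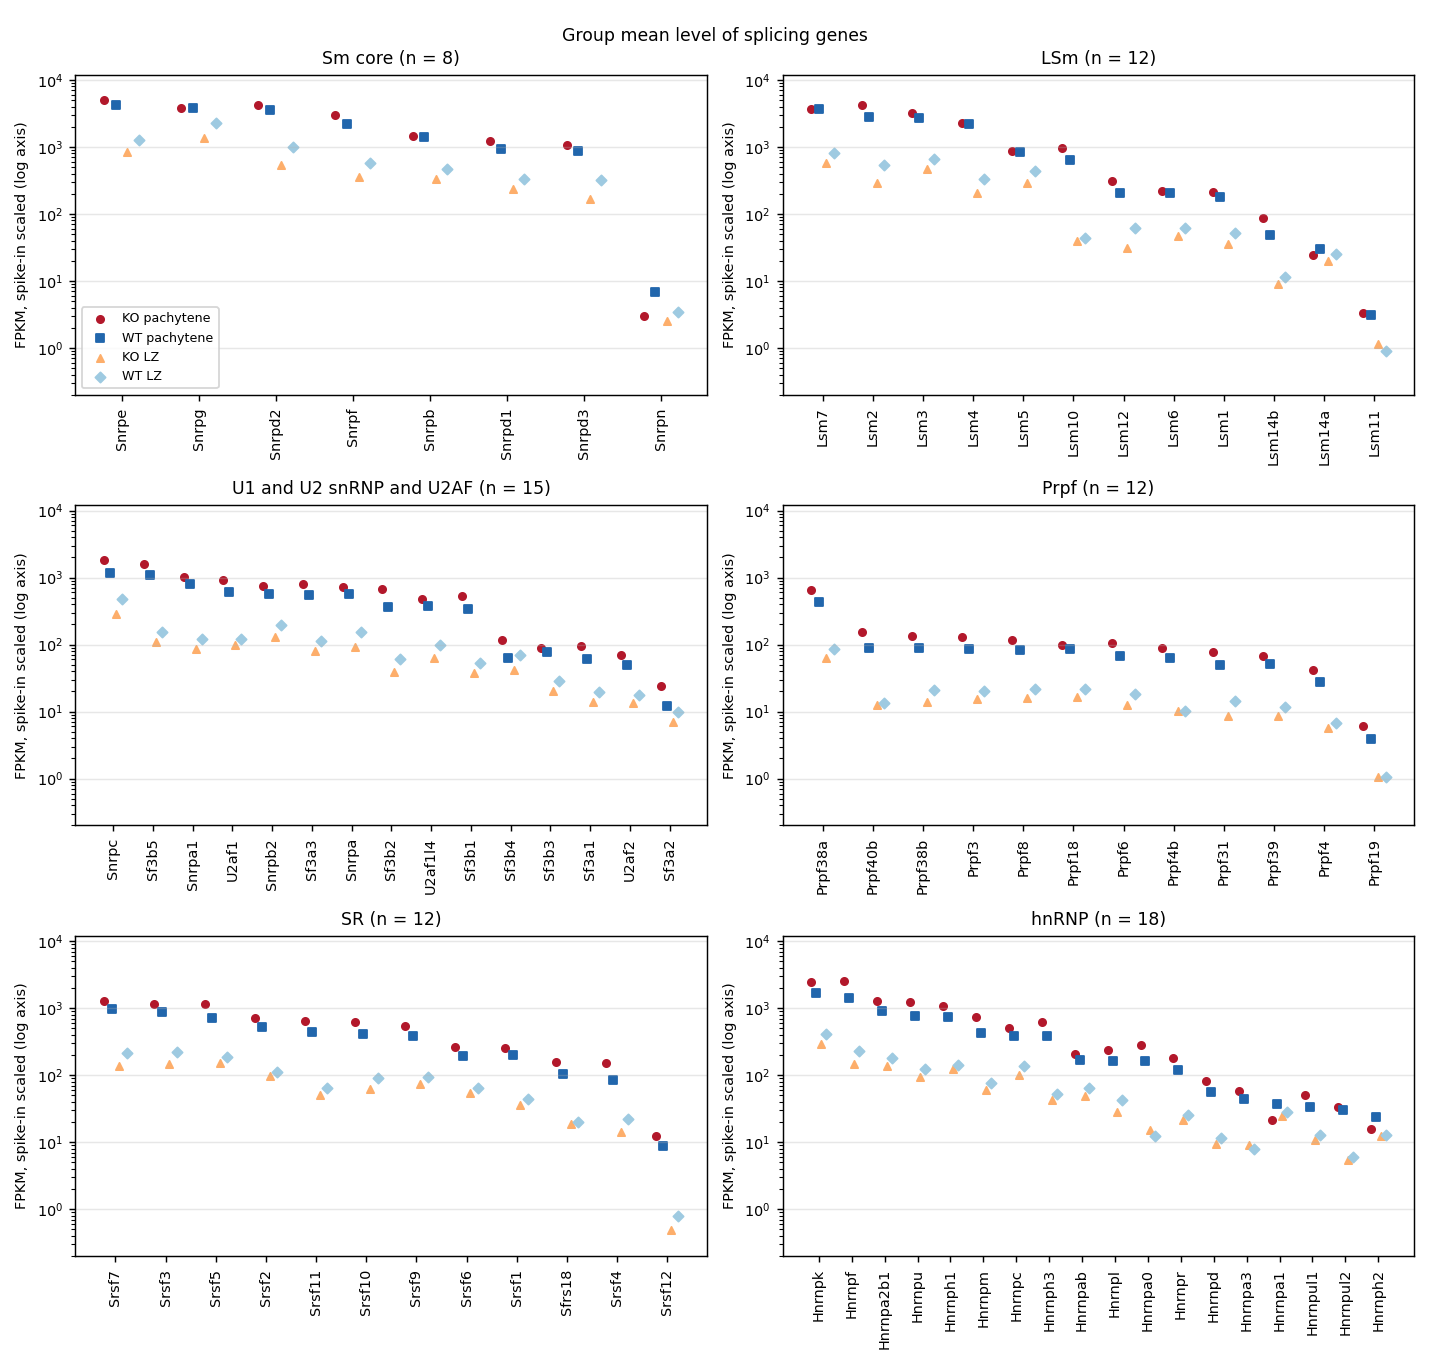
Mean spike-in-scaled FPKM (log axis) of 77 of the 78 splicing genes in the 4 groups (3 libraries each), in panels by role and ordered by mean level; KO stands for KO-labelled. Pachytene symbols sit far above LZ symbols for most genes, and the Sm and LSm panels reach the highest levels, with Snrpn near the bottom at 2.99 FPKM in KO-labelled pachytene libraries.

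The first question was how these genes changed from LZ to pachytene. In WT cells 73 of the 78 (93.6%) were higher at pachytene (limma, Benjamini-Hochberg adjusted p under 0.05 over all 15400 genes) and 0 were lower. Over all genes tested 80.9% were higher and 0.487% lower, and among genes with a mean of at least 10 FPKM 91.2% were higher, so that the count of splicing genes lay near that of other genes of their level. At an unadjusted p under 0.05, 73 were higher and 0 lower, and the share of all genes at that threshold was not counted. In KO-labelled cells 74 (94.9%) were higher and 0 lower, against 76.8% higher and 2.83% lower over all genes and 89.3% higher among genes with a mean of at least 10 FPKM. At an unadjusted p under 0.05, 74 were higher and 0 lower, again without a share of all genes. The median log2 change of the splicing genes was 1.97 in WT, against 1.64 for all genes and 2.08 for genes of at least 10 FPKM. In KO-labelled cells it was 2.96, against 2.29 and 3.17. Their summed level was 66183 ± 4559 FPKM in KO-labelled and 51014 ± 7679 FPKM in WT pachytene libraries, and 9177 ± 1577 FPKM in KO-labelled and 14004 ± 2928 FPKM in WT LZ libraries (SD, n = 3 each).

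As a share of all FPKM in a library, the splicing genes went the other way. They made up 1.06 to 1.28% of the total in KO-labelled and 1.26 to 1.42% in WT pachytene libraries, against 1.71 to 2.09% in KO-labelled and 1.78 to 1.88% in WT LZ libraries, with no overlap between stages. Most of this lay in the Sm core, whose share was 0.350 ± 0.0552% in KO-labelled and 0.438 ± 0.0755% in WT pachytene libraries, against 0.799 ± 0.0968% in KO-labelled and 0.809 ± 0.0648% in WT LZ libraries. The hnRNP share differed less, at 0.204 ± 0.0175% in KO-labelled and 0.198 ± 0.0193% in WT pachytene libraries, 0.250 ± 0.0207% in KO-labelled LZ libraries and 0.209 ± 0.00927% in WT LZ libraries. Because the total itself differed between stages, changes are given below also after median-ratio scaling, in which a library is divided by the median of its gene-wise ratios to an average library and which brings the median change of all genes near 0. After it, 13 splicing genes were called higher and 14 lower at pachytene in WT (20.4% and 17.8% of all genes), and 15 higher and 17 lower in KO-labelled cells (31.7% and 29.3%). With every library set to the same total, 6 were higher and 28 lower in WT (13.6% and 24.5% of all genes), and 3 higher and 47 lower in KO-labelled cells (18.9% and 41.2%). The direction of many of these genes between the stages thus depended on the scaling.

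By role, the hnRNP genes had the highest median and the Sm core the lowest in the WT stage comparison. In that comparison 80.9% of all genes and 91.2% of genes with a mean of at least 10 FPKM rose. Of the 18 hnRNP genes 17 rose, with a median log2 change 0.59 above that of all genes. All 12 SR genes rose, with a median 0.52 above, and all 13 Prpf genes rose, with a median 0.27 above. Of the 12 LSm genes 11 rose (0.25 above), as did 13 of the 15 genes of U1 snRNP, U2 snRNP and U2AF (0.19 above). The Sm core had 7 of 8 genes higher and a median 0.15 below that of all genes. In KO-labelled cells the hnRNP median was 0.75 above that of all genes and the Sm median 0.21 above. There 16 of 18 and 7 of 8 genes were higher, against 76.8% of all genes. Genes with a mean of at least 10 FPKM had a median change of 2.08 in WT and 3.17 in KO-labelled cells. In WT only the hnRNP (2.23) and SR (2.16) medians were above it, and the Sm core was lowest at 1.48. In KO-labelled cells every role median was below it, from 2.51 for the Sm core to 3.05 for hnRNP genes. After median-ratio scaling the WT role medians ran from -0.57 for the Sm core to 0.25 for hnRNP genes.

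**Figure D2:**
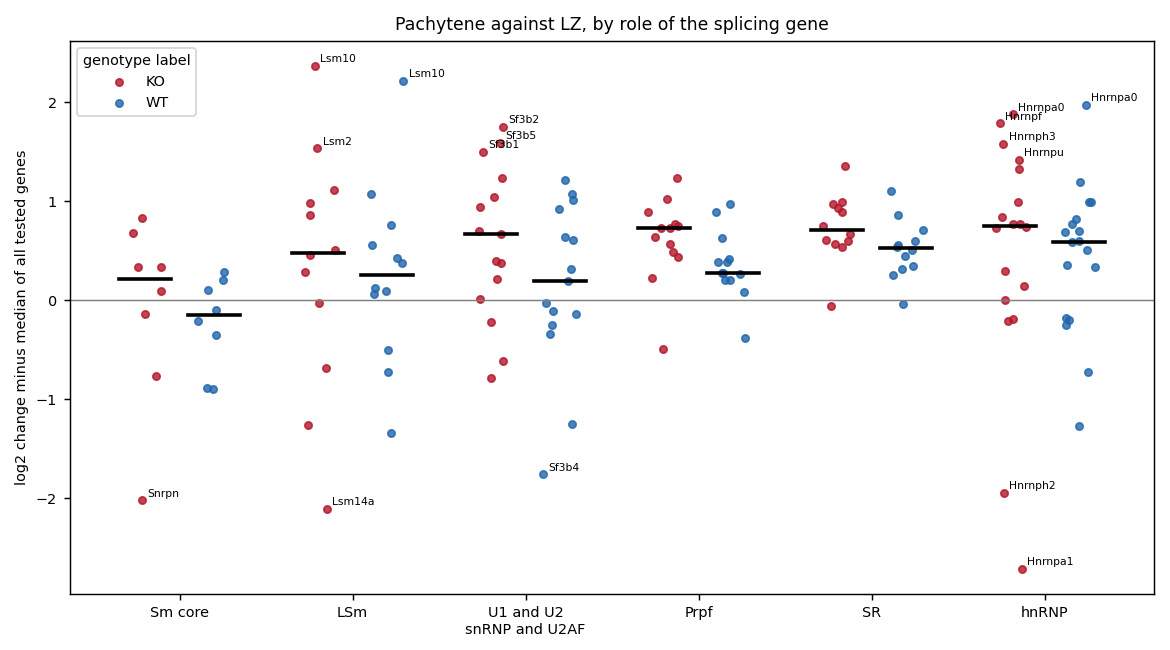
Log2 change from LZ to pachytene of each splicing gene minus the median of all 15400 tested genes (vertical axis), by role, in KO-labelled (red, left) and WT (blue, right) cells; bars are medians of the role. Lsm10 and Hnrnpa0 stand at the top in both genotypes, and Hnrnpa1, Lsm14a, Snrpn and Hnrnph2 are the lowest in KO-labelled cells.

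The gene with the largest rise in both genotypes was Lsm10, whose protein replaces an Sm subunit in the U7 snRNP that processes the ends of histone mRNAs. Lsm10 had 1051, 974 and 850 FPKM in KO-labelled and 521, 724 and 697 FPKM in WT pachytene libraries, against 25, 34.8 and 57.3 FPKM in KO-labelled and 43.5, 52.2 and 36.0 FPKM in WT LZ libraries. All pachytene libraries were far above all LZ libraries, and the LZ genotypes overlapped. Its log2 change was 4.66 in KO-labelled cells (SE 0.27, adjusted p = 1.75e-09) and 3.85 in WT (SE 0.27, adjusted p = 6.84e-08), and it was also called higher after median-ratio scaling in both, by 1.70 and 1.82. Lsm11, its partner in the U7 ring, stayed at low levels: 3.34 ± 1.00 FPKM in KO-labelled and 3.14 ± 0.497 FPKM in WT pachytene libraries, and 1.13 ± 0.556 FPKM in KO-labelled and 0.905 ± 0.370 FPKM in WT LZ libraries. Next came Hnrnpa0, which binds AU-rich elements in mRNAs. Hnrnpa0 had 268, 282 and 287 FPKM in KO-labelled and 192, 127 and 162 FPKM in WT pachytene libraries, against 9.66, 16.8 and 18.7 FPKM in KO-labelled and 16.5, 10.1 and 10.4 FPKM in WT LZ libraries. The pachytene groups did not overlap, and every pachytene library was above the LZ libraries. Its log2 change was 4.17 in KO-labelled cells (SE 0.27, adjusted p = 4.18e-09) and 3.61 in WT (SE 0.27, adjusted p = 9.42e-08).

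At the other end, 2 genes barely moved on the spike-in scale in either genotype. Hnrnpa1, a splicing repressor and one of the best studied hnRNP proteins, had 28.5, 6.91 and 28.6 FPKM in KO-labelled and 26.8, 45.4 and 39.7 FPKM in WT pachytene libraries, against 22.7, 22.4 and 28.6 FPKM in KO-labelled and 32.9, 27.8 and 24.3 FPKM in WT LZ libraries. Its groups overlapped between stages, and KO-labelled pachytene replicate 2 was far below the rest. The log2 change was -0.42 in KO-labelled cells (SE 0.42, adjusted p = 0.373) and 0.36 in WT (SE 0.42, adjusted p = 0.424). Lsm14a, whose protein belongs to cytoplasmic mRNA granules that hold untranslated mRNA, had 14.2, 21.9 and 38.2 FPKM in KO-labelled and 31.7, 25.9 and 32.9 FPKM in WT pachytene libraries, against 18.4, 19.3 and 22.5 FPKM in KO-labelled and 34.4, 22.0 and 18.9 FPKM in WT LZ libraries, again with overlap. Its log2 change was 0.19 in KO-labelled cells (adjusted p = 0.606) and 0.29 in WT (adjusted p = 0.402). After median-ratio scaling both were called lower at pachytene: Hnrnpa1 fell by 3.21 in KO-labelled cells and by 1.62 in WT on the log2 scale, and Lsm14a fell by 2.64 in KO-labelled cells and by 1.68 in WT. Hnrnpa1 has processed copies in the genome (Hnrnpa1l2-ps among them), so its reads may have been split by the authors' mapping.

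The promoters of these 4 genes are shown because they are the 2 with the largest rise in both genotypes and 2 of the 3 with the smallest change in both. Each runs from 250 bases before to 50 bases after the RefSeq transcription start, 5' to 3' along the gene, in assembly GRCm38.p6. Capitals mark matches to the motifs searched, given further on. Lsm10 lies at chr4:126096403-126096702 (plus strand), Hnrnpa0 at chr13:58128507-58128806 (minus strand), Lsm14a at chr7:34389656-34389955 (minus strand) and Hnrnpa1 at chr15:103240147-103240446 (plus strand).
Lsm10: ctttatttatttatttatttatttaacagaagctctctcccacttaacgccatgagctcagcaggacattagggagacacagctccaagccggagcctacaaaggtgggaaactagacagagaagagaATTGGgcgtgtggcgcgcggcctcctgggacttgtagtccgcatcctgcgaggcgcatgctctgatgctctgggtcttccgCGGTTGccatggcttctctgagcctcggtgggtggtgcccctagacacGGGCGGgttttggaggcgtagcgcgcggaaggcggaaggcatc
Hnrnpa0: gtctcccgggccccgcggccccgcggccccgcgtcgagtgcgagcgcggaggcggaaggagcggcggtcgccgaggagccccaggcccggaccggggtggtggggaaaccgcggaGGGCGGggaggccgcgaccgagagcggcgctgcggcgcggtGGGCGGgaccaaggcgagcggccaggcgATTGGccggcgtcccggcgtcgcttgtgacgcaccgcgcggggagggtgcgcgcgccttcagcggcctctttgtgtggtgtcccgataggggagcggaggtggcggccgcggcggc
Lsm14a: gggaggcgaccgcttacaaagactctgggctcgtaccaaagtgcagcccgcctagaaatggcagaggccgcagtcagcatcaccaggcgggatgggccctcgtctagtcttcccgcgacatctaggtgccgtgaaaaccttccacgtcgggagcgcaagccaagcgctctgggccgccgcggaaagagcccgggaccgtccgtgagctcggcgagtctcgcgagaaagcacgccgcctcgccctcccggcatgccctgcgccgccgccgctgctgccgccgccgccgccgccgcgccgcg
Hnrnpa1: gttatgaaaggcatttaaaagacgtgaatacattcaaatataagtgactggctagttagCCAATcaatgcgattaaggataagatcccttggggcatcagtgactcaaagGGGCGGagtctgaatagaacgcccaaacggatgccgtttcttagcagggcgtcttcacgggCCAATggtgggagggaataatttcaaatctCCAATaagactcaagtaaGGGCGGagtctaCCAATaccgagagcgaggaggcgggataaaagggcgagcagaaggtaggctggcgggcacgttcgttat

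The 4 promoters differed in base composition and motifs with no order that followed the change. Hnrnpa0 had 79.7% G and C with 52 CpG dinucleotides, Lsm14a had 70.3% with 41, Lsm10 had 56.3% with 19 and Hnrnpa1 had 48.3% with 16. Motifs were searched on both strands for 5 short runs of letters. The ETS core, bound by ETS factors, was CCGGAAG. The GC box was GGGCGG. The CCAAT box has its letters as its name, and the TATA box was TATAAA. The MYB core was CAACNG. Matches of different motifs may overlap. The Lsm10 promoter held 1 GC box, 1 CCAAT and 1 MYB core, Hnrnpa0 held 2 GC boxes and 1 CCAAT, Hnrnpa1 held 2 GC boxes and 4 CCAAT, and Lsm14a held none of the 5. Promoters were found for 66 of the 78 splicing genes, 89 in all because some genes have several starts. The ETS core was in 28.1% of them, against 15.2% of the 13532 promoters of all tested genes and 8.86% of all 32851 promoters. CCAAT was in 48.3% against 38.3% and 37.4%, the GC box in 66.3% against 56.6% and 35.7%, the MYB core in 39.3% against 33.9% and 35.0%, and the TATA box in 7.87% against 8.18% and 13.6%. These shares describe letters in a window and were not tested, and promoters of 1 gene can overlap.

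**Figure D3:**
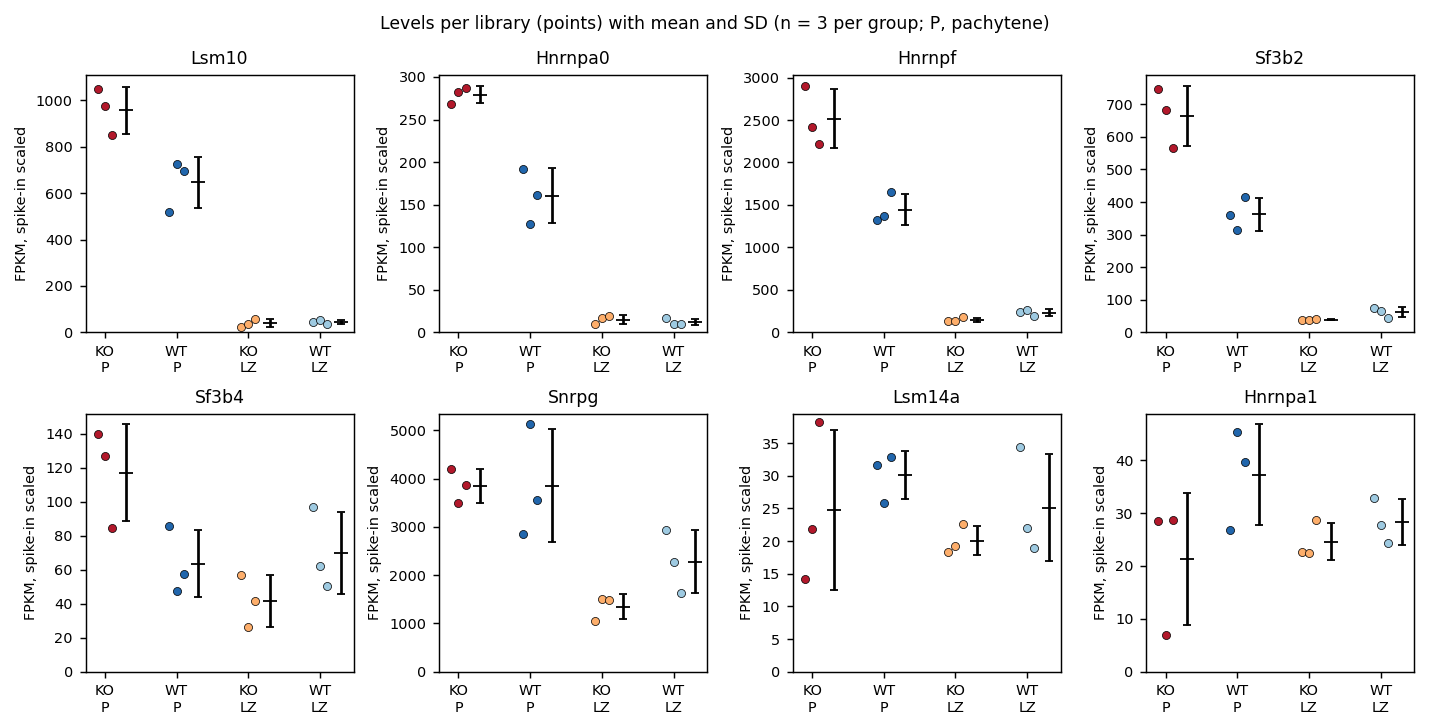
Spike-in-scaled FPKM per library (points), with mean and SD beside them (n = 3), for 8 splicing genes in KO-labelled (KO) and WT cells at pachytene (P) and LZ; each panel has its own axis from 0. Lsm10, Hnrnpa0, Hnrnpf and Sf3b2 are high only in the pachytene groups, whereas the points of Sf3b4, Snrpg, Lsm14a and Hnrnpa1 overlap between stages in at least 1 genotype.

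Within U2 snRNP, subunits of the same complex differed widely. SF3b holds the branch point, and Sf3b5, its small subunit, had 1679, 1697 and 1393 FPKM in KO-labelled and 918, 1200 and 1202 FPKM in WT pachytene libraries, against 87.1, 123 and 113 FPKM in KO-labelled and 189, 172 and 107 FPKM in WT LZ libraries. The stages did not overlap. Its log2 change was 3.88 in KO-labelled cells (SE 0.24, adjusted p = 2.43e-09) and 2.85 in WT (SE 0.24, adjusted p = 1.75e-07). Sf3b4, another SF3b subunit, had 140, 127 and 84.8 FPKM in KO-labelled and 85.6, 47.5 and 57.8 FPKM in WT pachytene libraries, against 56.8, 26.3 and 41.7 FPKM in KO-labelled and 96.7, 62.2 and 50.6 FPKM in WT LZ libraries. The stages overlapped in WT but not in KO-labelled cells. Sf3b4 rose by 1.51 in KO-labelled cells (SE 0.33, adjusted p = 0.000793) and was at -0.12 in WT (SE 0.33, adjusted p = 0.733), and after median-ratio scaling it was called lower in both, with changes of -1.44 in KO-labelled cells and -2.14 in WT. Sf3a2, of the SF3a part of U2 snRNP, rose by 1.68 in KO-labelled cells (adjusted p = 0.000559) and was at 0.39 in WT (adjusted p = 0.314). The Sf3b4 to Sf3b5 ratio within a library, which no scaling between libraries can move, was 0.0729 ± 0.0113 in KO-labelled and 0.0603 ± 0.0289 in WT pachytene libraries, against 0.411 ± 0.222 in KO-labelled and 0.450 ± 0.0785 in WT LZ libraries, with no overlap between stages.

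Other genes with large changes were Hnrnph3, Hnrnpf and Srsf11. Hnrnph3 and Hnrnpf bind G-rich stretches, as do Hnrnph1 and Hnrnph2 of the same subfamily. Hnrnph3 rose by 3.87 in KO-labelled cells (SE 0.21) and by 2.83 in WT (SE 0.21), and Hnrnpf by 4.08 (SE 0.20) and 2.63 (SE 0.20). Srsf11, an SR-related protein, rose by 3.65 in KO-labelled cells (SE 0.20) and 2.74 in WT (SE 0.20). All 3 were also called higher after median-ratio scaling in both genotypes. The WT and KO-labelled stage comparisons have no library in common, though the fit estimated 1 spread for all groups. After median-ratio scaling 12 genes were called higher in both, which is 80.0% of the KO-labelled list and 92.3% of the WT list: Hnrnpa0, Hnrnpf, Hnrnph3, Hnrnpm, Hnrnpu, Lsm10, Prpf40b, Sf3b1, Sf3b2, Sf3b5, Snrpa1 and Srsf11. The 13 called lower in both, 76.5% and 92.9% of the lists, were Hnrnpa1, Hnrnpab, Hnrnpc, Hnrnph2, Hnrnpul1, Lsm14a, Lsm5, Sf3a2, Sf3b3, Sf3b4, Snrpb, Snrpg and Srsf6. The same overlap was not counted over all genes, so these percentages are not shown to be particular to the splicing genes. Across the 78 genes the KO-labelled and WT stage changes had a Pearson correlation of 0.886 and a Spearman correlation of 0.875, against 0.832 and 0.864 across all 15400 genes. These are descriptions across genes, which are not independent replicates.

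Ratios of related genes within a library compared the FPKM of relatives at each stage. Hnrnph2, the only X-linked gene of the 78, stood to the autosomal Hnrnph1 at 0.0105, 0.0142 and 0.0194 in KO-labelled and 0.0313, 0.0320 and 0.0335 in WT pachytene libraries, against 0.119, 0.111 and 0.0689 in KO-labelled and 0.0926, 0.101 and 0.0732 in WT LZ libraries. Neither the stages nor the pachytene genotypes overlapped, while the LZ genotypes did. On the spike-in scale Hnrnph2 itself was called higher at pachytene in WT, at 0.91 (SE 0.30, adjusted p = 0.0123). In KO-labelled cells it was at 0.35 (adjusted p = 0.293). Hnrnph1 rose more, by 2.41 in WT and by 3.13 in KO-labelled cells. After median-ratio scaling Hnrnph2 was called lower in both, at -1.02 in WT and -2.41 in KO-labelled cells. As background, the X chromosome is silenced in pachytene spermatocytes, and its part in this ratio was not tested. Lsm14a to Lsm14b was 0.154, 0.256 and 0.453 in KO-labelled and 0.661, 0.468 and 0.762 in WT pachytene libraries, against 2.59, 1.87 and 2.34 in KO-labelled and 2.1, 2.50 and 2.15 in WT LZ libraries. Lsm14a was thus the more abundant of the pair at LZ in all 6 libraries, and Lsm14b at pachytene in all 6. Hnrnpa1 to Hnrnpa2b1 was 0.0202, 0.00558 and 0.0228 in KO-labelled and 0.0385, 0.0452 and 0.0394 in WT pachytene libraries, against 0.232, 0.162 and 0.166 in KO-labelled and 0.153, 0.139 and 0.188 in WT LZ libraries. Hnrnpa2b1, a close relative that also reads m6A-marked RNA, had the higher FPKM of this pair in every library. The possible split of Hnrnpa1 reads among processed copies applies here too. The lowest ratio came from KO-labelled pachytene replicate 2, where Hnrnpa1 had 6.91 FPKM. U2af1l4 to U2af1, whose proteins read the 3' splice site, was 0.529 ± 0.0197 in KO-labelled and 0.631 ± 0.0606 in WT pachytene libraries, and 0.641 ± 0.0722 in KO-labelled and 0.787 ± 0.0481 in WT LZ libraries. U2af1l4 overlaps Psenen in the RefSeq annotation, and the strand used in counting is not given in the sources used here. With 3 libraries a group an exact permutation p could not go below 0.1, and no test was made of these ratios.

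**Figure D4:**
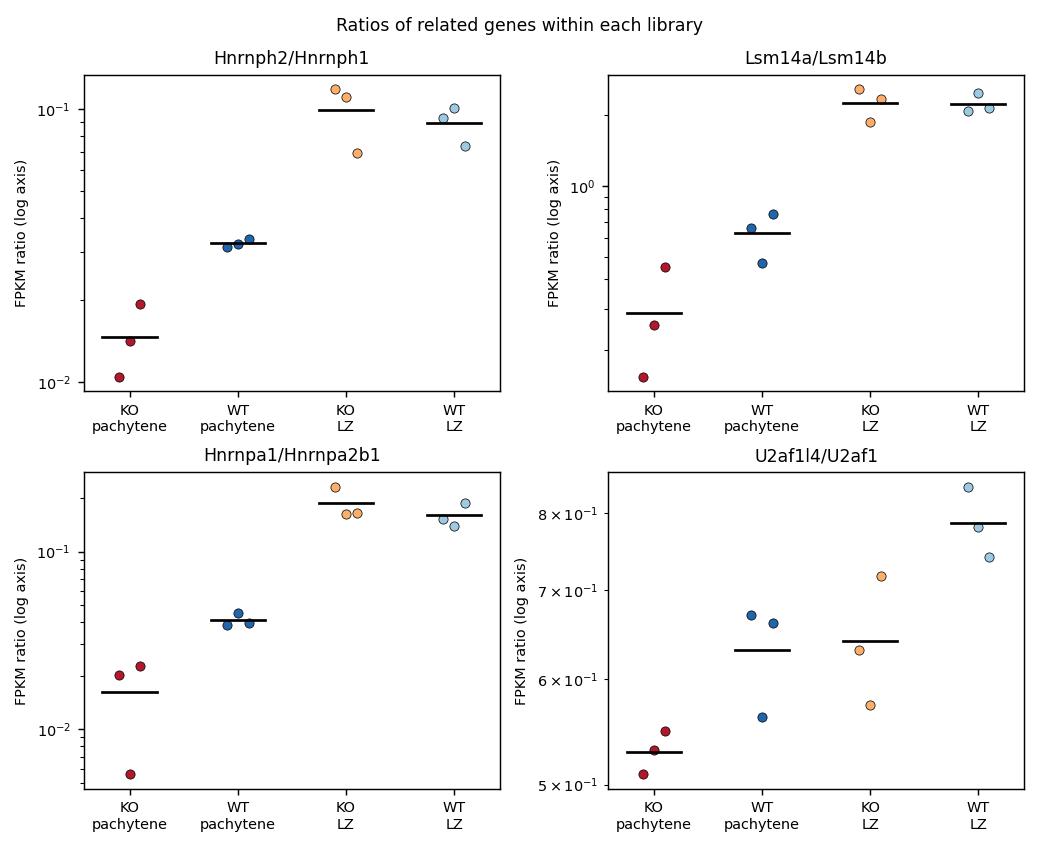
Ratio of FPKM of related splicing genes within each library (log axis), in KO-labelled (KO) and WT cells at pachytene and LZ; points are libraries and bars group means (n = 3). The Lsm14a to Lsm14b ratio is below 1 in the 6 pachytene libraries and above 1 in the 6 LZ libraries, and the Hnrnph2 to Hnrnph1 ratio is lowest in KO-labelled pachytene libraries.

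The next question was how KO-labelled and WT cells differed at pachytene. Of the 78 genes 17 (21.8%) were higher in KO-labelled cells and 0 lower, against 24.6% higher and 14.3% lower over all genes and 35.9% higher among genes with a mean of at least 10 FPKM. At an unadjusted p under 0.05, 36 were higher and 1 lower, and the share of all genes at that threshold was not counted. The median log2 change was 0.52, against 0.37 over all genes and 0.58 for genes of at least 10 FPKM. Those that rose were 5 hnRNP genes (Hnrnpa0, Hnrnpf, Hnrnph3, Hnrnpm and Hnrnpu), 4 SR genes (Sfrs18, Srsf10, Srsf4 and Srsf5), 4 Prpf genes (among them Prpf38a, Prpf40b and Prpf6), the SF3b genes Sf3b1 and Sf3b2, and Lsm14b and Lsm2, and none of the 8 Sm core genes. Sf3b2, which contacts the pre-mRNA beside the branch point, had 745, 681 and 566 FPKM in KO-labelled and 359, 314 and 415 FPKM in WT pachytene libraries, with no overlap, and rose by 0.87 (SE 0.21, adjusted p = 0.0146). Hnrnpm, a splicing regulator, had 819, 714 and 709 FPKM in KO-labelled and 383, 417 and 469 FPKM in WT libraries, again with no overlap, and rose by 0.82 (SE 0.19, adjusted p = 0.0126). Lsm14b had 92.0, 85.5 and 84.4 FPKM in KO-labelled and 47.9, 55.3 and 43.1 FPKM in WT libraries, and rose by 0.83 (SE 0.26, adjusted p = 0.0268). Hnrnpf had 2897, 2420 and 2223 FPKM in KO-labelled and 1318, 1367 and 1649 FPKM in WT libraries, and rose by 0.80 (SE 0.20, adjusted p = 0.0154). The changes of Sf3a2 and Sf3b4 were as large, at 0.91 (SE 0.36, adjusted p = 0.0555) and 0.88 (SE 0.33, adjusted p = 0.0501), but did not pass the test.

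The lowest changes at pachytene were those of Hnrnpa1 at -0.97 (SE 0.42, adjusted p = 0.0749), Snrpn at -0.86 (SE 0.48, adjusted p = 0.16) and Hnrnph2 at -0.58 (SE 0.30, adjusted p = 0.123), none of which passed the test. The Hnrnpa1 change was -0.34 (adjusted p = 0.355) without KO-labelled pachytene replicate 2, where its level was 6.91 FPKM, and -1.29 without replicate 3, where it passed the test (adjusted p = 0.0321). Hnrnph2 had 12.2, 15.2 and 20.3 FPKM in KO-labelled and 24.6, 19.0 and 29.1 FPKM in WT pachytene libraries, and the groups overlapped. The change of Lsm7 was 0.00 (SE 0.24, adjusted p = 0.99). After median-ratio scaling Hnrnpf, Hnrnpm and Sf3b2 were still called higher, at 0.45, 0.47 and 0.52, and 0 genes were lower, against 3.57% higher and 9.62% lower over all genes. With equal totals 0 were higher and 3 lower (0.286% and 11.3% of all genes). The 3 were Hnrnpa1 at -1.46, Hnrnph2 at -1.08 and Snrpb at -0.46. The count of 17 fell to 0 without KO-labelled pachytene replicate 1, to 1 without KO-labelled pachytene replicate 2 and to 5 without WT pachytene replicate 1 or 2, and was 30 with a pseudocount of 5.

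At LZ fewer splicing genes passed the test, all of them lower in KO-labelled cells. Of the 78, 5 (6.41%) were lower and 0 higher, against 12.9% lower and 0.136% higher over all genes and 19.9% lower among genes with a mean of at least 10 FPKM. At an unadjusted p under 0.05, 30 were lower and 0 higher. The share of all genes at that threshold was not counted, so this count has nothing to be set against. The median log2 change was -0.43, as for all genes, against -0.55 for genes of at least 10 FPKM. Snrpd2, a subunit of the Sm ring, had 465, 572 and 582 FPKM in KO-labelled and 1263, 960 and 777 FPKM in WT LZ libraries, with no overlap, and fell by 0.87 (SE 0.21, adjusted p = 0.0227). Lsm2, of the U6 and the mRNA decay rings, had 262, 313 and 304 FPKM in KO-labelled and 526, 637 and 421 FPKM in WT libraries, and fell by 0.83 (SE 0.20, adjusted p = 0.0249). Lsm12 had 29.9, 32.4 and 29.3 FPKM in KO-labelled and 76.0, 67.6 and 43.1 FPKM in WT libraries, also with no overlap, and fell by 0.97 (SE 0.27, adjusted p = 0.0361). Srsf7, an SR protein with a zinc knuckle, fell by 0.68 (SE 0.20, adjusted p = 0.0428), and Hnrnpf fell by 0.65 (SE 0.20, adjusted p = 0.0491). The highest changes were those of Hnrnpa0 at 0.25 (adjusted p = 0.534) and Hnrnpa3 at 0.16 (adjusted p = 0.694). After median-ratio scaling 0 were called (0.39% of all genes higher, 0.688% lower), and likewise with equal totals (0.584% higher, 0.734% lower). The count was also 0 without the filter on low values or when the pachytene libraries were left out of the fit, and 2 with a pseudocount of 5. The count fell to 0 without WT LZ replicate 1 or 2 or KO-labelled LZ replicate 2 or 3, to 2 without KO-labelled LZ replicate 1, and to 3 without WT pachytene replicate 2 or 3 or KO-labelled pachytene replicate 1 or 2, and was 16 without WT LZ replicate 3.

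**Figure D5:**
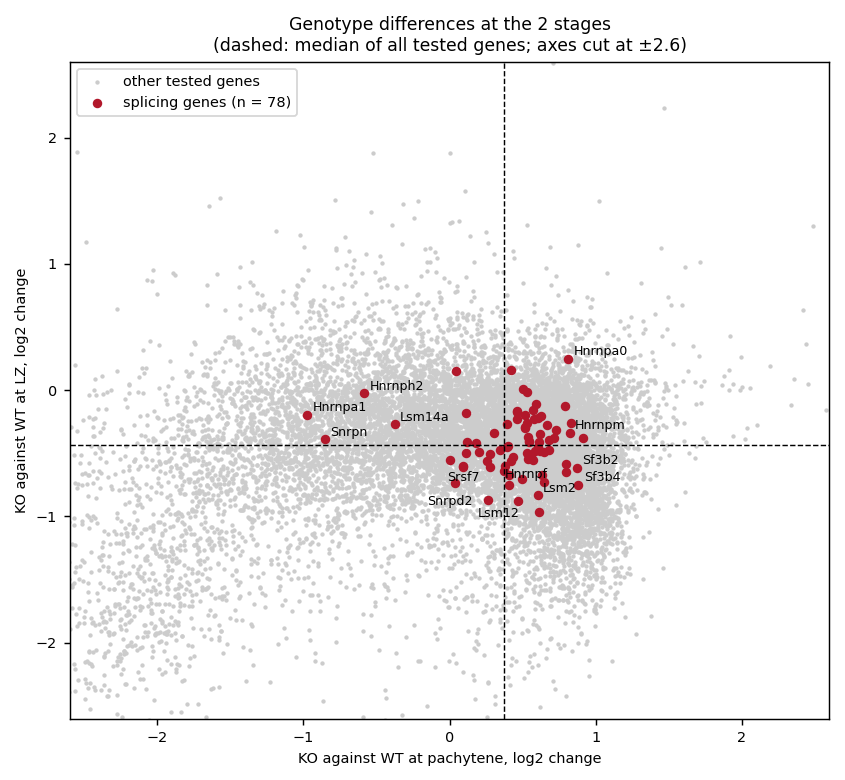
Log2 change of KO-labelled (KO) against WT cells at pachytene (horizontal) and at LZ (vertical) for the 78 splicing genes (red) among other tested genes (grey); dashed lines are the medians of all 15400 genes, and grey points beyond 2.6 on either axis are not drawn. Most splicing genes lie near the crossing of the medians at 0.37 and -0.43, with Hnrnpa1, Snrpn and Hnrnph2 to the left.

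The difference between these genotype effects (pachytene minus LZ) was tested directly as an interaction. It was positive and called for 37 of the 78 genes (47.4%) and negative for 0, against 34.9% and 3.49% over all genes and 53.6% positive among genes with a mean of at least 10 FPKM. At an unadjusted p under 0.05, 51 were positive and 0 negative, and the share of all genes at that threshold was not counted. The U1, U2 and U2AF genes had the most, 12 of 15, followed by 8 of 18 hnRNP, 6 of 12 SR, 6 of 13 Prpf, 3 of 12 LSm and 2 of 8 Sm core genes. The median difference of the U1, U2 and U2AF genes was 1.08, near the 1.04 of genes with a mean of at least 10 FPKM. Medians of the other roles were lower, from 0.74 for LSm to 0.94 for Prpf genes. The smallest p-values were those of Hnrnpf, with a difference of 1.45 (SE 0.28, adjusted p = 0.00524), Lsm2 at 1.44 (SE 0.29, adjusted p = 0.0055) and Sf3b2 at 1.48 (SE 0.30, adjusted p = 0.00566). Hnrnpf and Lsm2 were thus each called lower in KO-labelled cells at LZ and higher at pachytene. The differences of Hnrnpa1 at -0.78 (adjusted p = 0.309), Hnrnph2 at -0.56 (adjusted p = 0.305) and Snrpn at -0.46 (adjusted p = 0.611) were negative and did not pass the test, and that of Hnrnpa1 ran from -1.10 to -0.14 when 1 library was left out, nearest 0 without KO-labelled pachytene replicate 2. After median-ratio scaling 0 differences were called in either direction (2.37% positive and 4.36% negative over all genes). With equal totals 0 were positive and 1 negative (0.695% and 6.23%), which was Hnrnph2 at -1.73. The count of 37 was 18 without KO-labelled pachytene replicate 1, 21 without WT LZ replicate 1, 22 without WT LZ replicate 2 and 23 without WT pachytene replicate 1. The KO effects at the 2 stages have no library in common. Across the 78 genes their Pearson correlation was -0.087 and their Spearman correlation 0.030, against 0.179 and -0.021 across all 15400 genes.

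Other splicing genes, from lists that do not overlap the 78, were counted in the same way. Of 67 helicases and other spliceosome proteins, 65 rose and 1 fell at pachytene in each genotype (76.8% of all genes rose in KO-labelled and 80.9% in WT cells). KO-labelled against WT cells had 23 higher and 1 lower at pachytene (24.6% and 14.3% of all genes) and 0 higher and 5 lower at LZ (0.136% and 12.9%). After median-ratio scaling 18 rose and 11 fell in KO-labelled cells between the stages (31.7% and 29.3% of all genes). In WT cells 11 rose and 12 fell (20.4% and 17.8%). On that scale KO-labelled against WT cells had 2 higher and 1 lower at pachytene (3.57% and 9.62%) and 0 called at LZ (0.39% and 0.688%). The gene lower at pachytene was Zrsr2, an X-linked factor of the minor spliceosome, which had 4.80 ± 4.09 FPKM in KO-labelled and 26.5 ± 3.78 FPKM in WT pachytene libraries, and fell by 2.56 (SE 0.47, adjusted p = 0.00442). Of the 25 tested splicing regulators, 22 rose in WT and 21 rose and 2 fell in KO-labelled cells between the stages. At pachytene 13 regulators were higher and 2 lower in KO-labelled cells (24.6% and 14.3% of all genes), and at LZ 1 was lower (12.9%). Among genes with a mean of at least 10 FPKM 35.9% were higher at pachytene. After median-ratio scaling 8 regulators rose and 8 fell in KO-labelled and 7 rose and 8 fell in WT cells between the stages, with 2 higher and 2 lower between genotypes at pachytene and 0 called at LZ. Khdrbs3, a relative of Sam68, had 833 ± 85.8 FPKM in KO-labelled and 435 ± 73.6 FPKM in WT pachytene libraries, against 28.2 ± 6.01 FPKM in KO-labelled and 31.8 ± 7.91 FPKM in WT LZ libraries, with a WT stage change of 3.75 (SE 0.24). Ptbp2, a repressor needed in mouse spermatogenesis, had 575 ± 19.7 FPKM in KO-labelled and 378 ± 109 FPKM in WT pachytene libraries, against 27.3 ± 6.43 FPKM in KO-labelled and 35.0 ± 5.01 FPKM in WT LZ libraries. All 6 tested SR protein kinases rose at pachytene in both genotypes, with Clk1 at 3.11 (SE 0.23) in WT. Of the 12 tested genes for snRNP assembly, 11 rose in KO-labelled cells and 12 in WT, with Gemin6, of the SMN complex that loads the Sm ring, at 3.13 (SE 0.22) in WT. After median-ratio scaling 3 of the 6 kinases rose and 0 fell in each genotype, and of the assembly genes 4 rose and 3 fell in KO-labelled and 1 rose and 3 fell in WT cells. Over all genes 76.8% rose in KO-labelled and 80.9% in WT cells on the spike-in scale, and 31.7% and 20.4% after median-ratio scaling. Among genes with a mean of at least 10 FPKM 89.3% rose in KO-labelled and 91.2% in WT cells on the spike-in scale. The genes named singly here were chosen for mention after their values were seen.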

How the data were processed

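Polyadenylated RNA of sorted spermatocytes was amplified as cDNA and sequenced as 150-base paired ends, per the labels' protocols. The submitters' processing notes name TopHat2 2.1.1, Cufflinks 2.2.1 and build mm9. The deposited FPKM values were scaled by the authors with ERCC spike-ins, as the name of the deposited table says. The annotation and scaling formula are not given in the sources used here. The table holds 4 further unnamed columns, not used. It gives no read counts, so depth is unknown and no counting intervals are given.

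Genes with at least 1 FPKM in at least 3 of 12 libraries (15400) were kept. Values were taken as log2(FPKM + 1), which understates changes of low genes. limma 3.58.1 under R 4.3.3 fitted 1 mean per group over all 12 libraries with moderated variances that may follow the mean level (trend). Tests were two-sided, adjusted over all genes by Benjamini-Hochberg and called at 0.05. Genes were named by rule: the 5 highest and 5 lowest changes per comparison with a mean of at least 5 FPKM in the higher group, the 3 smallest p-values per direction for the interaction, the most abundant member of each family, and related sets; 1 gene is counted in the totals but not reported here by name. Genes outside the rule appear in lists of called genes and among other splicing genes. Members and lists were chosen with earlier results of these data known. Promoters are RefSeq GRCm38.p6. Of the 78 genes, 21 overlap another gene in that annotation. Correlations of log2 values within groups were 0.980 to 0.994 over the splicing genes; over all tested genes they were 0.923 to 0.952 among KO-labelled LZ libraries and 0.967 to 0.975 in the other groups. The fit was tested on simulated data.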

Additional observations from a re-analysis of the deposited data

Results flagged for a closer look

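The genotype effect (KO-labelled against WT) differed between pachytene and LZ, by limma's interaction term at an adjusted p under 0.05, for 18 of the splicing genes named by rule. The difference (pachytene minus LZ, log2) was positive in all 18. In U2 snRNP and at the 3' splice site it was 1.63 for Sf3b4, 1.48 for Sf3b2, 1.03 for Sf3b5, 0.965 for U2af1 and 1.01 for U2af1l4. In the U1 snRNP gene Snrpa it was 1.16, and in the Sm gene Snrpd2 it was 1.13. In the Lsm genes it was 1.58 for Lsm12, 1.44 for Lsm2 and 1.09 for Lsm14b. In the Prpf gene Prpf38a it was 1.05. In the SR genes it was 1.08 for Srsf7 and 0.907 for Srsf11. In the hnRNP genes it was 1.45 for Hnrnpf, 1.16 for Hnrnpm, 1.07 for Hnrnpk, 1.04 for Hnrnph3 and 0.959 for Hnrnpa2b1. The median was 0.72 over all tested genes and 1.04 over those with a mean of at least 10 FPKM, as all 18 had. Of the latter genes 53.6% were called positive. The values of Sf3b5, U2af1, U2af1l4, Srsf11 and Hnrnpa2b1 lay below 1.04, that of Hnrnph3 was equal to it and the others lay above. None of the 18 was called after median-ratio scaling.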

How the results depend on the processing

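Counts of genes called are for the 78 splicing genes. After median-ratio scaling the WT stage comparison had 13 higher and 14 lower, the KO-labelled stage comparison 15 higher and 17 lower, KO-labelled against WT 3 higher at pachytene and 0 lower at LZ, and the interaction 0 positive. With equal totals these were 6 and 28, 3 and 47, 0 higher and 3 lower at pachytene, 0 at LZ, and 0 positive and 1 negative. The LZ count of 5 was 2 with a pseudocount of 5 and 0 without the filter or with the LZ libraries alone. The pachytene count of 17 was 30 with a pseudocount of 5. Leaving out each library in turn gave 0 to 16 lower at LZ, 0 to 25 higher and 0 to 1 lower at pachytene, 70 to 74 and 74 to 74 higher in the WT and KO-labelled stage comparisons, and 18 to 55 positive interactions.

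Of the 78 log2 changes, 38 turned sign after median-ratio scaling and 64 with equal totals in the KO-labelled stage comparison, 40 and 58 in the WT one, 16 and 44 between genotypes at pachytene, 54 and 64 at LZ, and 33 and 63 in the interaction. Among the genes named by rule for a comparison, those that turned follow, with the value after median-ratio scaling first and with equal totals second. In the KO-labelled stage comparison they were Lsm14a -2.64 and -3.28, Hnrnph2 -2.41 and -3.05, Sf3b4 -1.44 and -2.05, and Snrpg -1.46 and -2.06. In the WT stage comparison they were Lsm14a -1.68 and -1.98, Hnrnpa1 -1.62 and -1.93, Sf3a2 -1.46 and -1.79, and Snrpn -0.89 and -1.21. Between genotypes they were Hnrnph2 0.55 and 0.65 and Sfrs18 0.47 and 0.56 at LZ, and Lsm7 -0.34 and -0.57 at pachytene. The cause was not tested. Without 1 library, signs turned at LZ for Hnrnpa3 (-0.024 to 0.38), Prpf4b (-0.20 to 0.19), Hnrnph2 (-0.29 to 0.11) and Sfrs18 (-0.26 to 0.034), at pachytene for Lsm7 (-0.084 to 0.13), in the WT stage comparison for Sf3b4 (-0.36 to 0.14), and in the KO-labelled one for Hnrnpa1 (-0.73 to 0.22) and Lsm14a (-0.17 to 0.51).

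Libraries share replicate numbers, but the labels do not say that a number marks an animal or a batch, so the main fit did not pair them. Deviations of same-numbered libraries correlated at -0.167 to 0.259, and 8 of 12 libraries correlated best with their own number. Between the stages of 1 genotype the correlations were all positive, at 0.083 to 0.259 in KO-labelled and 0.027 to 0.163 in WT cells. Whether same-numbered libraries share an animal or a batch was not tested. With a replicate block the counts were 4 lower at LZ, 12 higher at pachytene, 73 and 74 higher between stages in WT and KO-labelled cells, and 33 positive interactions. Depth is unknown, which limits what can be said of low genes such as Snrpn.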
